A study of Mus musculus with 6 samples.

Results

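The genes described here are 43 genes that interferons induce, listed by name. The rule for membership uses no measured value, but the list was written with earlier results of these data known. Of these, 40 were measured by a probe set that carries no other gene's symbol, out of 22180 genes so measured; Ifi44, Oas1a and Dtx3l were not analysed here. The signals come from CD4 T cells of the lung, sorted from wild-type mice as CD45+ CD4+ cells without CD11b and F4/80, and hybridised to whole-transcript mouse arrays. There were 3 arrays from mice sensitised and challenged with house dust mite (HDM), an allergen source that provokes allergic airway inflammation, and 3 from mice given PBS, the vehicle. The sources used here give no strain, age, dose, timing or number of mice per array. The arrays are titled as biological replicates 1 to 3 of each group. With 3 arrays a group, their number limits the precision, and a p-value reflects no more than how these samples scatter.

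Interferons are secreted proteins that cells release on sensing viral nucleic acid or, for interferon gamma, that T cells and natural killer cells release on activation. Type I interferons bind the receptor pair Ifnar1 and Ifnar2 and act through the kinases Jak1 and Tyk2 to activate a complex that includes Stat2 and Irf9. This complex binds the interferon-stimulated response element (ISRE) in the promoters of its targets. Interferon gamma binds Ifngr1 and Ifngr2 and its targets carry the gamma-activated site (GAS). The targets block viral replication, sense viral RNA, process antigen and feed back on the pathway, and T cells express many of them at rest.

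The comparison asked whether these genes differed between CD4 T cells of HDM-treated and PBS-treated lungs, and which of them departed from the rest. Of the 40 measured genes, 2 rose in HDM and 0 fell, by limma with Benjamini-Hochberg adjustment over all 22180 genes and a threshold of 0.05. Over all genes tested, 2.39% rose and 1.56% fell. The share of interferon-induced genes that rose was above that of all genes, but it rests on 2 genes. The shares were not tested against each other. Of the members at an unadjusted p below 0.05 in the same fit, 0 were lower in HDM. The 2 that rose were Apol9b, an apolipoprotein L family gene, at 4.91-fold, and Isg20, an exonuclease that degrades viral RNA, at 1.86-fold. Their differences exceeded the median of the other members by 2.18 and 0.77 on the log2 scale. The other 38 members had differences of at most 0.51 in size, and 6 of them had an unadjusted p below 0.05. With the 2 that rose, 8 of 40 members (20%) had such a p, against 17.8% of all genes. The threshold was missed by classical members such as Isg15, Irf7, Mx1, Oas2 and Ifit1.

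The RefSeq promoter windows of 4 members are printed. The first 3 hold letters that match the ISRE core, and the last is of Isg20, a member that rose and whose windows held no such match. Each window runs from 250 bases before to 50 bases after a transcript start, on build GRCm38.p6, written 5′ to 3′ on the gene's strand. In the first 3, capitals mark the ISRE core, GAAANNGAAA or its reverse complement TTTCNNTTTC; in the last, capitals mark the GAS core, TTCNNNGAA.
Apol9b, chr15:77728822-77729121, plus strand: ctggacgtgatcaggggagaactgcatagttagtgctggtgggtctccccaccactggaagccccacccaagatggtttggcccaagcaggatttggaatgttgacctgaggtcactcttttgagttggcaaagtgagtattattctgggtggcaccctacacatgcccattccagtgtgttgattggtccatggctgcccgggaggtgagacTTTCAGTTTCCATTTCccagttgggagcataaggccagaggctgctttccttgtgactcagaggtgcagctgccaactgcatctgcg
Isg15, chr4:156200769-156201068, minus strand: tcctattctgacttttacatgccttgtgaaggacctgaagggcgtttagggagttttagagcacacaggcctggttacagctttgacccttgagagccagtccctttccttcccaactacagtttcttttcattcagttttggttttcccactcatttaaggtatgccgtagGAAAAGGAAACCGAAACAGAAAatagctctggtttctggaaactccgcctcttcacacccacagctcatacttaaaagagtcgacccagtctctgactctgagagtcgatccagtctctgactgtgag
Ifit1, chr19:34640639-34640938, plus strand: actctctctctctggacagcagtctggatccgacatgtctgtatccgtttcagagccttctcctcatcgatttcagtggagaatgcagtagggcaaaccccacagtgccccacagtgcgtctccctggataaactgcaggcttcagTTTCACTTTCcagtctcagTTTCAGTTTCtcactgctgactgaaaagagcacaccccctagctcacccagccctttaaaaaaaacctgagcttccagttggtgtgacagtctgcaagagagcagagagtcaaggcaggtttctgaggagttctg
Isg20, chr7:78913174-78913473, plus strand: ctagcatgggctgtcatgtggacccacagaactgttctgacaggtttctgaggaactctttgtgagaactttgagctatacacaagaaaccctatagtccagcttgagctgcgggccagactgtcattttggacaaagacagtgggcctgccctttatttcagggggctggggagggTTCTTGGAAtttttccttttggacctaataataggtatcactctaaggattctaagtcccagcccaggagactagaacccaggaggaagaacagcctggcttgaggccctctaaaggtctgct

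In the Apol9b window, 2 overlapping ISRE cores begin 37 and 31 bases before the transcript start. Isg15, which encodes a ubiquitin-like protein, has 3 overlapping cores that begin 78, 72 and 66 bases before its start. Ifit1, which encodes a binder of viral RNA caps, has 2 separate cores that begin 104 and 85 bases before its start. Isg20 has no ISRE core in any of its 3 windows in the table, and a single GAS core that begins 73 bases before the first start. The table held windows for 34 of the 43 members. Of their 43 windows, 18 (41.9%) held an ISRE core on either strand, against 3.44% of all 32851 windows of the same length. A GAS core stood in 10 (23.3%), against 8.3% of all windows, and in 2 member windows the matches of both motifs overlapped. A match is a description of the letters and not a measured binding site.

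Members with and without the core covered overlapping ranges of difference. The 15 measured members with an ISRE core had a median log2 difference of 0.25, with a range from −0.20 (Igtp) to 2.30 (Apol9b). The 16 with windows but without a core had a median of 0.04, with a range from −0.43 (Ifit2) to 0.89 (Isg20). Bst2, which encodes the membrane tether tetherin, has 2 ISRE cores in its window, and its difference was −0.02. These medians were not tested against each other.

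Apol9b stood apart from every other member. Its log2 signal was 6.49, 6.70 and 6.46 in PBS replicates 1, 2 and 3 and 9.07, 8.99 and 8.48 in the HDM replicates. All 3 HDM arrays lay above all 3 PBS arrays, with a gap between the groups far wider than the spread inside either. The difference was 2.30 ± 0.16 (SE, n = 3 per group, limma adjusted p = 0.00113), the 13th highest of the 22180 genes. It kept its call when any single array was left out, with differences from 2.18 to 2.48 and adjusted p of up to 0.0115. It missed the threshold without both arrays numbered 1 (adjusted p = 0.0699) or both numbered 2 (0.0805). Apol9a, a closely similar gene with a probe set of its own, was 8.10, 8.22 and 8.37 in PBS and 8.74, 8.92 and 8.67 in HDM, and it rose by 0.55 ± 0.11 (limma adjusted p = 0.0401). How far transcripts of either gene bind the probes of the other is not known from the values, so the split between them is uncertain.

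Isg20 was 9.09, 9.18 and 8.96 in the PBS arrays and 9.63, 10.13 and 10.15 in the HDM arrays. The groups did not overlap, and HDM replicate 1 was the lowest of its group. The difference was 0.89 ± 0.15 (SE, n = 3 per group, limma adjusted p = 0.0209). The call was kept in 2 of the 6 fits that leave out 1 array. The difference stayed between 0.80 and 1.07 in all 6. Adjusted p was 0.0781 without PBS replicate 1, 0.0831 without PBS replicate 2, 0.051 without PBS replicate 3 and 0.0985 without HDM replicate 2. In these fits, in the same order, the higher calls over all genes went from 531 to 192, 177, 410 and 181. The lower calls went from 345 to 65, 41, 347 and 55. With the replicate number as a block in the fit, Isg20 passed as higher (adjusted p = 0.00514).

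Some markers of other cells were also higher in HDM. Of 9 macrophage markers, 2 passed: Retnla (5.84, 5.81 and 5.0 in PBS, 9.67, 10.74 and 7.81 in HDM) and Chil3 (9.63, 9.39 and 8.42 in PBS, 11.61, 11.63 and 10.52 in HDM). Within HDM both were lowest in replicate 3, as was Apol9b, while Isg20 was highest there. The calls of Retnla and Chil3 were lost in at least 4 of the 6 fits that leave out an array, with adjusted p of up to 0.0919 and 0.11. Summed over the 9 markers, log2 signals ran from 67.1 to 67.8 in PBS and from 73.7 to 77.3 in HDM. Retnla and Chil3 made this gap: summed over the other 7 markers, the signals ran from 52.3 to 53.7 in PBS and from 52.2 to 56.0 in HDM, so that the groups overlapped and HDM replicate 2 was the lowest array. The macrophage receptor genes Adgre1 and Csf1r differed by 0.39 ± 0.24 (SE, limma adjusted p = 0.469) and 0.52 ± 0.25 (adjusted p = 0.34), with overlapping groups. With the replicate number as a block in the fit, Retnla (adjusted p = 0.000988), Chil3 (9.52e-05) and Csf1r (0.0488) passed as higher. Adgre1 did not (0.0858). The part of such cells in the Apol9b and Isg20 differences was not tested, and in sorted bulk cells a change in the number of contributing cells cannot be told apart from a change in RNA per cell.

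**Figure D1:**
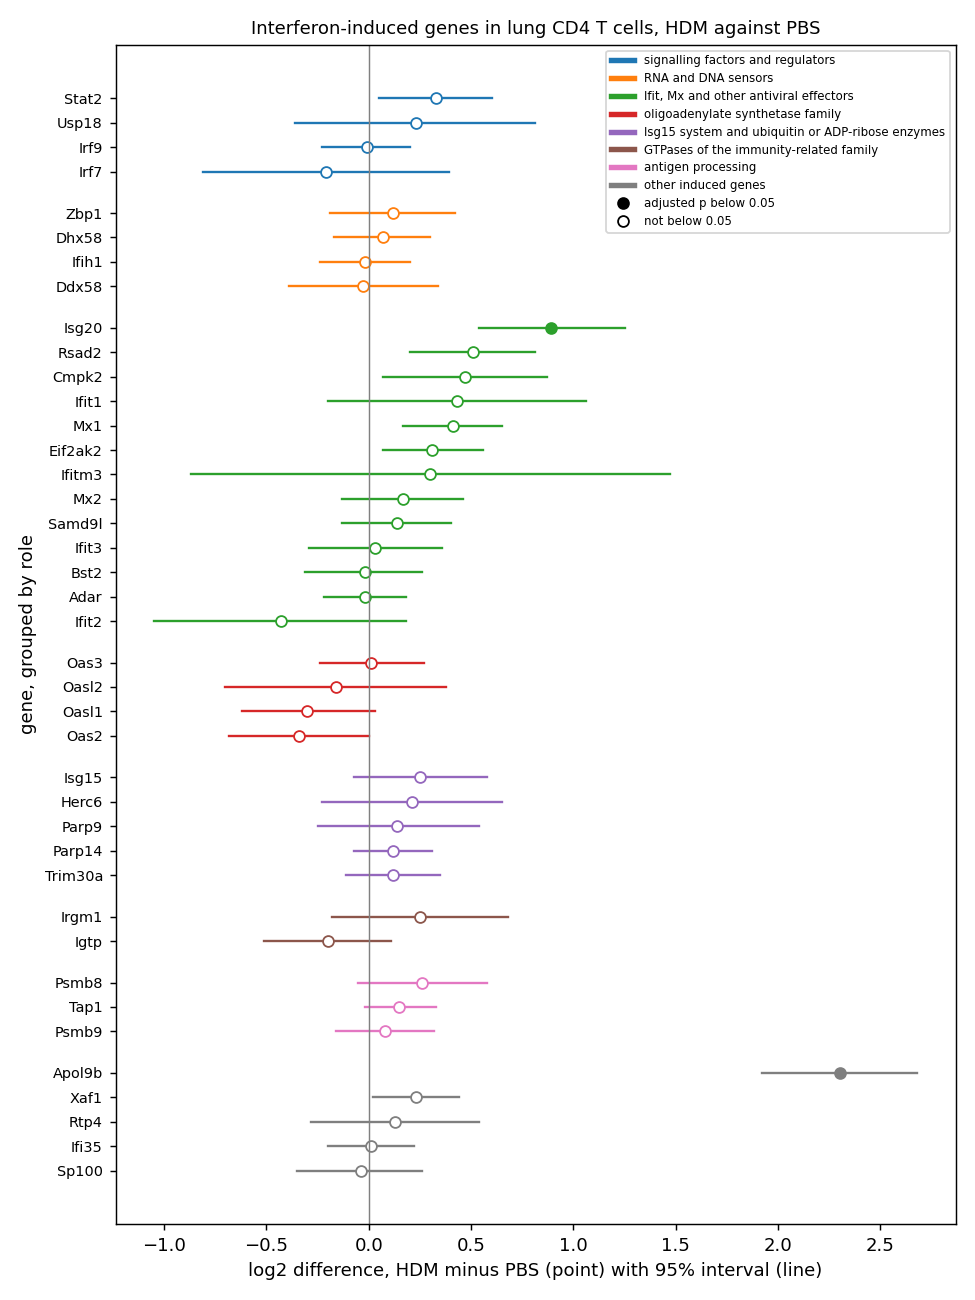
Log2 difference, HDM minus PBS, of the 40 measured genes (points) with its 95% interval (lines), grouped by role; filled points have an adjusted p below 0.05. Apol9b at 2.30 and Isg20 at 0.89 are the filled points, and every other point lies between −0.43 and 0.51.

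The pairing of arrays by replicate number changed the count. Arrays numbered 1 and arrays numbered 3 deviated together from the means of their groups (correlations of 0.43 and 0.53 over all genes). Arrays numbered 2 did so only weakly (0.17), less than PBS replicate 1 with HDM replicate 2 (0.25). The number was also fitted as a block, a choice made from these same data and not from the labels. With the block, 7 members rose and 0 fell, against 5.95% and 6.01% of all genes. The 5 added members were Rsad2, Cmpk2, Mx1, Stat2 and Eif2ak2.

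Rsad2, which encodes viperin, an enzyme that makes a chain-terminating nucleotide, was 7.57, 7.65 and 7.77 in PBS and 8.02, 8.44 and 8.06 in HDM. Cmpk2, its genomic neighbour and a nucleotide kinase, was 8.61, 8.55 and 8.28 in PBS and 8.78, 9.32 and 8.74 in HDM. In both genes the HDM arrays lay above the PBS arrays, and HDM replicate 2 was the highest. Rsad2 differed by 0.51 ± 0.13 (SE, limma adjusted p = 0.0851, 0.0288 with the block) and Cmpk2 by 0.47 ± 0.17 (adjusted p = 0.197, 0.0438 with the block).

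Mx1, a dynamin-like GTPase that blocks influenza virus, was dim, with 5.56, 5.47 and 5.26 in PBS and 5.78, 5.95 and 5.78 in HDM. The groups did not overlap, and the difference was 0.41 ± 0.10 (SE, limma adjusted p = 0.0816, 0.0407 with the block). Its relative Mx2 overlapped between groups (0.17 ± 0.13, adjusted p = 0.575). Eif2ak2, the kinase PKR that halts translation on binding double-stranded RNA, was 8.02, 8.0 and 7.77 in PBS and 8.30, 8.27 and 8.17 in HDM. Its 3 HDM arrays lay above its PBS arrays, with a difference of 0.31 ± 0.11 (adjusted p = 0.16, 0.0488 with the block).

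Among the antiviral effectors as a group, 1 of 13 rose, Isg20, and 12 did not pass; 10 of the 13 differences were above 0, and their median was 0.30. Of the 3 measured Ifit genes, 0 passed by limma and 0 with the block. Ifit1 was 9.04, 8.65 and 8.68 in PBS and 8.77, 9.90 and 8.99 in HDM. The groups overlapped, and HDM replicate 2 alone stood well above the PBS arrays (0.43 ± 0.27, limma adjusted p = 0.484). Ifit2 was 8.50, 8.07 and 7.40 in PBS and 7.63, 7.77 and 7.27 in HDM, the lowest difference of all members (−0.43 ± 0.26, adjusted p = 0.463). Its spread among PBS arrays was wide, and HDM was the lower array in each same-numbered pair, by 0.87, 0.31 and 0.13. Without both arrays numbered 3, Ifit2 passed as lower (−0.59, adjusted p = 0.0417). Ifit3 differed by 0.03 ± 0.14, and its close copy Ifit3b, which is no member, by 0.46 ± 0.12 (adjusted p = 0.0732, 0.0281 with the block); the signals of the copies cannot be fully told apart here.

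**Figure D2:**
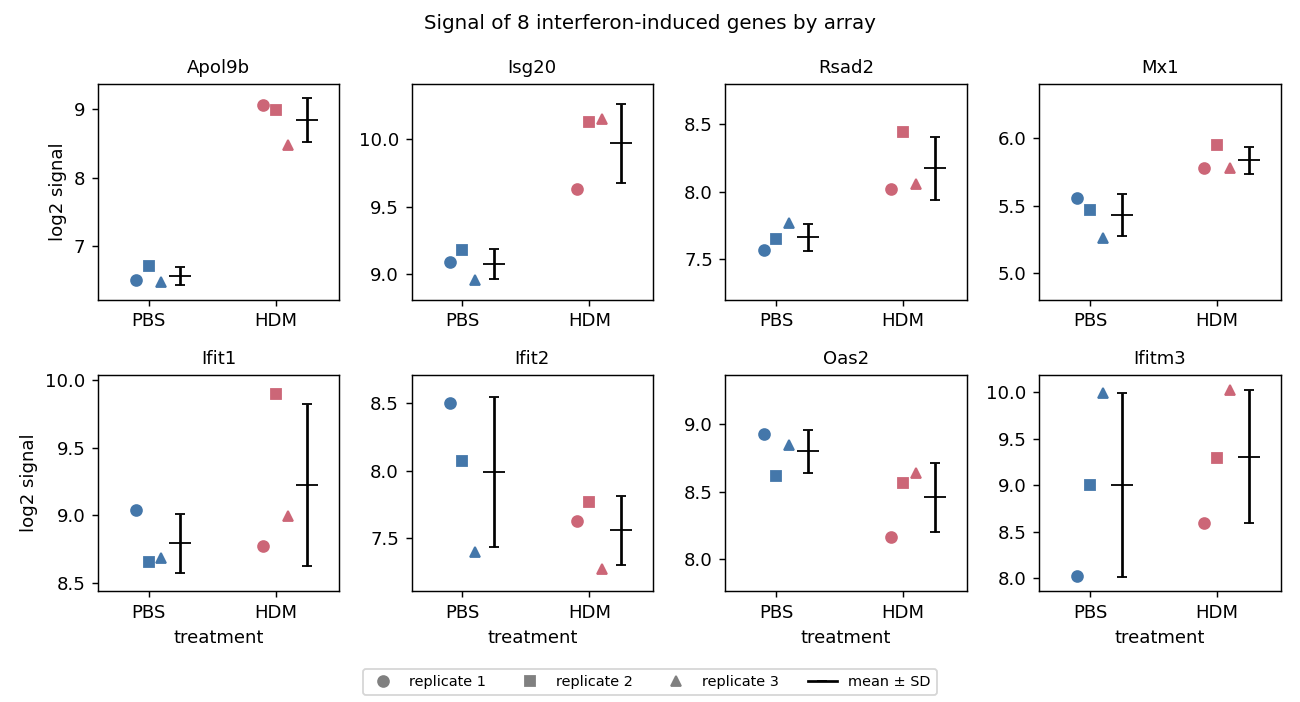
Log2 signal of 8 genes in each array, by treatment; markers give the replicate number and the bars the mean ± SD of 3 arrays, and each panel has its own axis. Apol9b, Isg20, Rsad2 and Mx1 have HDM arrays above all PBS arrays, while Ifit1, Ifit2, Oas2 and Ifitm3 overlap.

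Ifitm3, a membrane protein that blocks entry of enveloped viruses, varied more between replicate numbers than between treatments. It was 8.02, 9.0 and 9.99 in PBS and 8.60, 9.29 and 10.03 in HDM, so that in both groups replicate 1 was low and replicate 3 high. The difference was 0.30 ± 0.51 (SE, limma adjusted p = 0.831, 0.122 with the block). Of 6 markers of epithelium and stroma, 2 rose in the order of Ifitm3, from replicate 1 through 2 to 3, in both groups. The endothelial gene Cdh5 did, with 8.59, 9.94 and 10.27 in PBS and 7.72, 8.62 and 9.78 in HDM. The fibroblast gene Col1a1 did too, with 7.24, 7.72 and 8.0 in PBS and 7.33, 7.58 and 7.81 in HDM. The other 4 did not. Scgb1a1, Epcam and Sftpc kept another order, lowest in replicate 1 and highest in replicate 2 of both groups. Pecam1 was lowest in replicate 3 of PBS. Summed over the 6 markers, log2 signals were 53.4, 58.4 and 58.2 in PBS and 52.3, 56.4 and 56.9 in HDM. The order was not particular to stroma. The B cell genes Cd79a, Cd79b and Ms4a1 had it, as did Siglech, Tcf4 and Cox6a2, markers of plasmacytoid dendritic cells. Pax5, Bst2 and Ccr9, from the same lists, did not. The part of RNA from stroma or other cells in the Ifitm3 signal was not tested. Bst2 (−0.02 ± 0.12) and the RNA-editing enzyme Adar (−0.02 ± 0.09) lay close to 0, and Samd9l, a restrictor of poxvirus translation, differed by 0.14 ± 0.12.

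The oligoadenylate synthetase family, which makes the messenger that activates RNase L together with inactive relatives, had the lowest median of the roles. Of 4 measured genes, 0 passed and 0 had an unadjusted p below 0.05 by limma, and 0 passed with the block; the median difference was −0.23. Oas2 was 8.93, 8.62 and 8.85 in PBS and 8.17, 8.57 and 8.64 in HDM, with overlap between HDM replicate 3 and PBS replicate 2 (−0.34 ± 0.15, limma adjusted p = 0.281). Oasl1 differed by −0.30 ± 0.14, Oasl2 by −0.16 ± 0.23 and Oas3 by 0.01 ± 0.11. Their median difference was −0.52 for replicate pair 1, 0.09 for pair 2 and −0.16 for pair 3.

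Among the signalling factors, 0 of 4 passed. Stat2, the transcription factor specific to type I and III interferon signalling, was 8.88, 9.04 and 8.80 in PBS and 9.27, 9.39 and 9.04 in HDM. PBS replicate 2 and HDM replicate 3 met at the same rounded value, and each HDM array was above its same-numbered PBS array (0.33 ± 0.12, limma adjusted p = 0.197, 0.0335 with the block). Irf9, its DNA-binding partner, differed by −0.01 ± 0.09. Irf7, the factor that amplifies interferon alpha production, was 9.88, 9.60 and 10.51 in PBS and 9.41, 9.80 and 10.16 in HDM, highest in the arrays numbered 3 (−0.21 ± 0.26). Siglech, a marker of plasmacytoid dendritic cells, which express much Irf7, was 8.50, 8.78 and 8.90 in PBS and 8.39, 8.66 and 9.41 in HDM, and also highest in the arrays numbered 3. The markers Tcf4 and Cox6a2 were highest there too, but Bst2 was lowest in PBS replicate 3, and Ccr9 was lowest of the HDM arrays in HDM replicate 3. Summed over 5 markers of these cells, Bst2 among them, log2 signals ran from 39.5 to 40.4 in PBS and from 39.8 to 42.2 in HDM, both highest in replicate 3. The part of such cells in the Irf7 signal was not tested. Usp18, which removes Isg15 from proteins and restrains the receptor, spanned 8.90 to 9.59 in PBS and 9.13 to 10.01 in HDM (0.23 ± 0.25).

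The sensors, the Isg15 system, the immunity-related GTPases and the antigen-processing genes held 0 calls among 14 measured genes by limma and 0 with the block, and 0 had an unadjusted p below 0.05. The RNA sensors Ifih1 (MDA5) and Ddx58 (RIG-I) differed by −0.02 ± 0.10 and −0.03 ± 0.16, Dhx58, their regulator, by 0.07 ± 0.10, and the nucleic acid sensor Zbp1 by 0.12 ± 0.13. Isg15 differed by 0.25 ± 0.14 and Herc6, the ligase that attaches it, by 0.21 ± 0.19. The ADP-ribosyltransferase genes Parp9 and Parp14 and the tripartite-motif gene Trim30a differed by 0.12 to 0.14. Of the GTPases that guard vacuoles with intracellular pathogens, Irgm1 differed by 0.25 ± 0.19 and Igtp by −0.20 ± 0.14. The peptide transporter Tap1 (0.15 ± 0.08) and the immunoproteasome subunits Psmb8 (0.26 ± 0.14) and Psmb9 (0.08 ± 0.10) were all above 0, with Tap1 the only one whose groups did not overlap. Of the remaining induced genes, Xaf1, a proapoptotic factor, differed by 0.23 ± 0.09, Rtp4 by 0.13 ± 0.18, Ifi35 by 0.01 ± 0.09 and the nuclear body gene Sp100 by −0.04 ± 0.13.

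The members leaned slightly upward. Their median log2 difference was 0.13, against −0.01 over all genes, and 28 of 40 differences were above 0. In 9 members all HDM arrays lay above all PBS arrays and in 0 they lay below, where 10.8% and 11.8% of all genes did so. By replicate pair, 14 of 40 (35%) were higher in HDM in all 3 pairs and 3 (7.5%) were lower in all 3, against 21.6% and 24.1% of all genes. For replicate pairs 1, 2 and 3 the median was −0.07, 0.24 and 0.18. It was 0.05 without PBS replicate 3 or without HDM replicate 2, and to 0.02 without both arrays numbered 2. The 95% interval of the difference lay within a 2-fold change either way for 35 of the 38 members that did not pass; the exceptions were Ifit1, Ifit2 and Ifitm3.

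**Figure D3:**
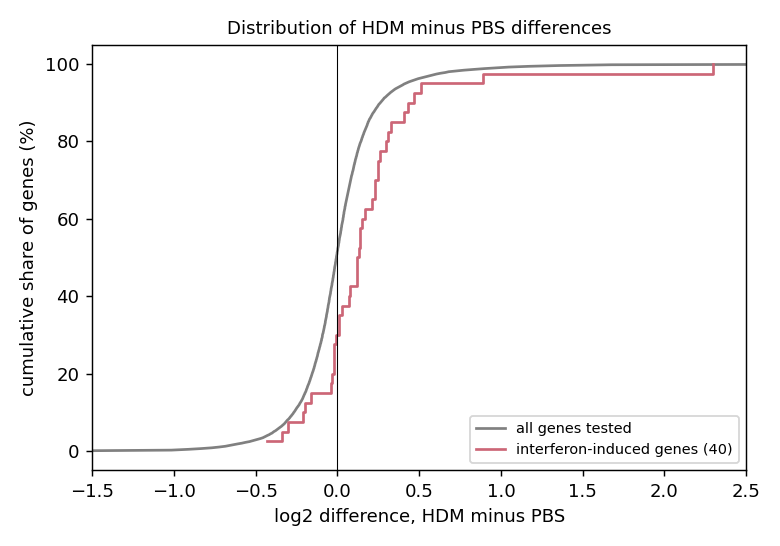
Cumulative share of genes (vertical axis, %) against the log2 difference, HDM minus PBS, for the 40 members and for all genes tested. The members' curve lies to the right of the other over most of its range, with medians of 0.13 and −0.01, and reaches 2.30 at Apol9b.

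Single arrays carried much of the members' variation. HDM replicate 2 held the highest of the 6 values for 19 of 40 members (47.5%), against 19.9% of all genes; Ifit1, Usp18, Rsad2, Cmpk2 and Parp9 were among them. PBS replicate 3 held the lowest value for 17 members (42.5%), against 18.8% of all genes, and HDM replicate 1 for 11 (27.5%, against 17.7%). The last group included Oas2, Oas3, Oasl1, Oasl2, Irf7, Isg15 and Rtp4; Oas3, Rtp4 and Ifi35 were lowest in HDM replicate 1 and highest in HDM replicate 2. The median SD within groups was 0.20 for the members, against 0.14 for genes of at least the median signal, which 37 of the 40 members reached.

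**Figure D4:**
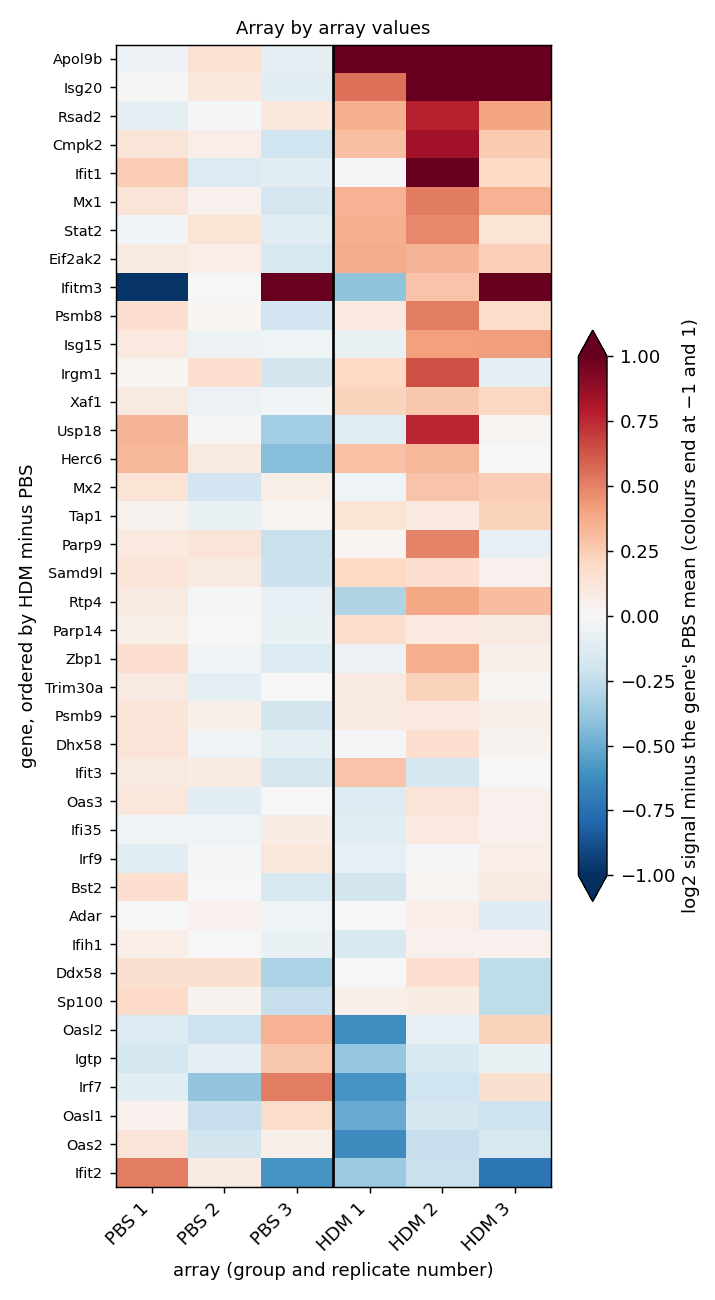
Log2 signal of each member in each array minus that gene's mean over the 3 PBS arrays, with genes ordered by their difference and colours ending at −1 and 1. HDM replicate 2 is the highest array for 19 of the 40 genes, and of the 6 bottom rows, from Oasl2 to Ifit2, all but Ifit2 are lowest in HDM replicate 1.

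No ligand passed the test. Of 16 measured interferon genes, 0 passed by limma, 0 with the block, 0 had an unadjusted p below 0.05, and the median difference was 0.00. Ifnb1, which encodes interferon beta, was dim at 4.24 to 4.49 in PBS and 4.29 to 4.41 in HDM. Ifng, which encodes interferon gamma, was 8.98, 9.06 and 9.54 in PBS and 8.72, 8.59 and 9.91 in HDM (−0.12 ± 0.33, limma adjusted p = 0.907), with both extremes in HDM. The largest differences in the list were those of Ifnl3 (0.35 ± 0.17) and Ifna6 (0.33 ± 0.16), and neither passed.

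The receptors and kinases held 2 calls among 11 measured genes, both lower in HDM, and the median was −0.03. Ifngr2, the signalling chain of the interferon gamma receptor, was 11.43, 11.76 and 11.63 in PBS and 10.41, 10.47 and 11.03 in HDM. All HDM arrays lay below all PBS arrays, with HDM replicate 3 nearest to them (−0.97 ± 0.17, limma adjusted p = 0.0218). Ifngr2 lost the call without any array other than HDM replicate 3, with adjusted p of up to 0.114. Jak1, the kinase shared by all interferon receptors, was 12.65, 12.61 and 12.57 in PBS and 12.30, 12.35 and 12.29 in HDM, a small and tight difference (−0.29 ± 0.06, adjusted p = 0.0299). Leaving out replicate 1 or 2 of either group ended the call (adjusted p as high as 0.14).

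The ligand-binding chain Ifngr1 overlapped between groups (−0.18 ± 0.15, limma adjusted p = 0.609). Ifnar1 was 11.02, 11.32 and 11.67 in PBS and 10.67, 10.62 and 11.42 in HDM, lower in HDM in each same-numbered pair (−0.43 ± 0.24, adjusted p = 0.406, 0.0244 with the block). Ifnar2 differed by 0.10 ± 0.07 with groups that did not overlap. With the block 3 genes of the list fell, Ifnar1, Ifngr2 and Jak1, and 3 rose, Il10rb, Jak2 and Tyk2, which encode a chain shared by the lambda and interleukin 10 receptors and further kinases.

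Among 5 measured interferon regulatory factors outside the members, Irf4 rose and 4 did not pass. Irf4, which antigen receptor signalling induces and Th2 cells need, was 8.77, 9.35 and 9.08 in PBS and 9.79, 10.13 and 10.30 in HDM (1.01 ± 0.18, limma adjusted p = 0.0227). The groups did not overlap, but leaving out PBS replicate 1, PBS replicate 3 or HDM replicate 2 ended the call (adjusted p as high as 0.105). Irf1, an early target of interferon gamma, was 10.29, 10.18 and 10.17 in PBS and 9.55, 9.44 and 10.13 in HDM. The groups did not overlap, and HDM replicate 3 came close to the PBS arrays while the others lay well below (−0.51 ± 0.17, adjusted p = 0.164). Without HDM replicate 3 the difference was −0.72 (adjusted p = 0.00543).

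**Figure D5:**
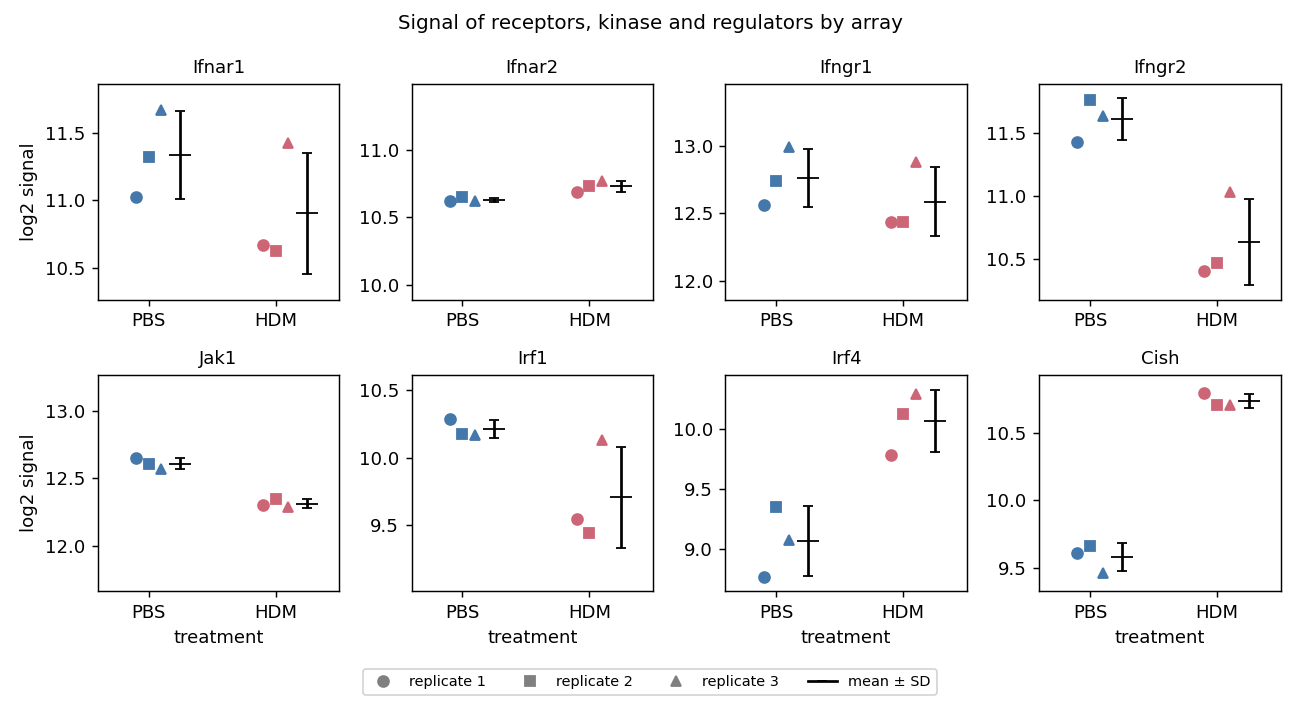
Log2 signal in each array of 8 genes upstream of the members or regulating them, by treatment, with markers for the replicate number and bars for the mean ± SD of 3 arrays; each panel has its own axis. Ifngr2 and Jak1 are lower in all HDM arrays and Irf4 and Cish higher, while Ifnar1 and Ifngr1 overlap between groups.

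Of 11 genes that restrain cytokine signalling, 1 rose and 10 did not pass. Cish, a suppressor of cytokine signalling that Stat5 induces, was 9.61, 9.66 and 9.46 in PBS and 10.79, 10.70 and 10.70 in HDM (1.15 ± 0.09, limma adjusted p = 0.00135), and it kept the call without any single array. It lost the call without both arrays numbered 1 (adjusted p = 0.0858) or both numbered 2 (0.103), as did Ifngr2, Jak1 and Irf4 (0.122 to 0.384). With the block 2 genes of the list rose, Cish and Pias3 (adjusted p = 0.0108), and Pias1 fell (0.0217). Socs1, the suppressor that interferon gamma induces, differed by −0.04 ± 0.12. Of 16 measured genes of nucleic acid sensing, 0 passed, 7 (43.8%, against 17.8% of all genes) had an unadjusted p below 0.05, and with the block 4 rose and 2 fell. The largest differences were those of Sting1, the adaptor for cytosolic DNA (0.60 ± 0.20, adjusted p = 0.15, 0.00411 with the block), Aim2, a DNA sensor of the inflammasome (0.57 ± 0.14, adjusted p = 0.075, 0.00604 with the block), and Trim25, the ligase that activates RIG-I (−0.57 ± 0.21, adjusted p = 0.194, 0.00444 with the block). Without HDM replicate 3, Aim2 (adjusted p = 0.0248) and Trim25 (0.0281) passed.

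Genes typical of interferon gamma gave 0 calls among 21 measured, 3 with an unadjusted p below 0.05 and 3 higher with the block, and their median was 0.02. The largest differences were those of the guanylate-binding protein gene Gbp3 (0.49 ± 0.21, limma adjusted p = 0.271, 0.028 with the block) and the adhesion molecule gene Icam1 (0.47 ± 0.17, adjusted p = 0.178, 0.00692 with the block). The chemokine gene Cxcl10 was 8.29, 8.63 and 9.15 in PBS and 7.92, 8.33 and 10.36 in HDM, and HDM replicate 3 was the array that stood apart.

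The array medians lay between 6.57 and 6.64. The T cell genes Cd3e and Cd4 were bright in every array, at 12.72 to 13.09 and 12.47 to 12.73, and 0 of 6 measured T cell markers passed by limma (2 at an unadjusted p below 0.05). With the block 2 of them, Cd3g (0.19 ± 0.06, adjusted p = 0.0308) and Cd5 (0.19 ± 0.06, adjusted p = 0.0458), passed as higher. Signal of lung epithelium was present in all arrays, with Scgb1a1, a club cell protein, at 10.94 to 12.48. Beside the macrophage genes, Itgax (1.06 ± 0.22, limma adjusted p = 0.038) and Ccr9 (0.63 ± 0.11, adjusted p = 0.0221) rose and Pecam1 fell (−0.51 ± 0.08, adjusted p = 0.0169), and each lost the call in 4 of the 6 fits that omit an array (adjusted p as high as 0.132, 0.103 and 0.0961). With the block, 3 markers of epithelium and stroma passed as lower: Pecam1, Cdh5 (adjusted p = 0.00979) and Sftpc (0.0177). Markers of monocytes and neutrophils, B cells, natural killer cells, and eosinophils and mast cells gave 0 calls among 19 by limma, with 1 at an unadjusted p below 0.05. The arrays numbered 3 were highest in their group for the B cell gene Cd79a, at 8.50 in PBS and 9.38 in HDM, and for the monocyte gene Cd14, at 8.37 and 8.03.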

How the data were processed

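Total RNA of 6 samples, 3 HDM and 3 PBS, was measured on Affymetrix Mouse Gene 2.0 ST arrays, grouped by the titles. The deposited values are log2 signals of probe sets that the authors computed by RMA, per the submitters' processing notes; RMA equalises array distributions, so a change in total RNA per cell is not visible. Of 33960 probe sets, 23521 carried exactly 1 symbol in the platform annotation, 1814 several and 8625 none here. For each of 22180 genes the brightest probe set by mean over the 6 arrays was used, with no filter on low signal and no detection call. Any pair of arrays shared at most 5 identical values.

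HDM minus PBS was fitted across all genes with limma 3.58.1 in R 4.3.3 (lmFit, eBayes with intensity trend), two-sided, with Benjamini-Hochberg adjustment and a threshold of 0.05; errors are SEs of this fit unless SD is named. The pathway and marker lists, the tests and the rule for naming genes (every member; of each list the passing genes, or the largest differences where none passed) were written with earlier results of these data known, as were the members. Apol9a, Ifit3b, Trim25, Pias1, Pias3, Cd3g, Cd5, Tcf4, Cox6a2, Epcam, Sftpc, Il10rb, Jak2, Tyk2, Cxcl10, Cd79a, Cd79b, Ms4a1, Pax5, Cd14, Csf1r, Adgre1, Cdh5, Col1a1, Siglech and Scgb1a1 were named after their values were seen. Other symbols were matched through Entrez IDs and RefSeq; promoter windows come from RefSeq, GRCm38.p6.

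Deviations from group means correlated across genes at 0.43, 0.17 and 0.53 for the arrays numbered 1, 2 and 3, each above 0.1. The replicate number was therefore also fitted as a block, as an alternative to the main fit, which used no pairing. This pairing comes from the data, not the labels. PBS replicate 1 also went with HDM replicate 2 (0.25), above the value for number 2, and over the members PBS replicate 2 went with HDM replicate 1 (0.52) more than with HDM replicate 2 (0.12). In 10 simulated sets of 22180 genes for HDM against PBS the fit found 26.6% of the genes given a log2 change of 0.5, 77.8% for 1 and 94.6% for 2, and 4.55% of its calls were false. The simulated noise was normal and independent between arrays, with SDs shuffled across genes. It therefore kept neither the replicate structure nor any link of SD to signal. The median SD within groups was 0.20 for the members and 0.13 for all genes, so these shares need not hold for the members.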

Additional observations from a re-analysis of the deposited data

How the results depend on the processing

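The members called higher, 2 in the fit described above, numbered 7 with the replicate number as a block, 4 with array weights, 4 at a threshold of 0.1, 1 at a threshold of 0.01 and 4 without both arrays numbered 3. There were 0 without both arrays numbered 1 and 0 without both numbered 2, 2 settings chosen after seeing the data, in which limma called 6 and 11 genes of all 22180. Leaving out 1 array gave between 1 and 2. The members called lower, 0 otherwise, numbered 1 without both arrays numbered 3. Filters on dim probe sets, repeated quantile normalization, median centring, eBayes without trend or robust, the mean of all probe sets and adjustment over all probe sets each gave the same 2 higher and 0 lower. The members' median difference stayed between 0.02 and 0.17. The cause of these shifts was not tested. The replicate block ended no call among members, Ifngr2, Jak1, Irf4 and Cish. Over all genes, the calls numbered 531 higher and 345 lower, against 1319 and 1334 with the block and 914 and 923 with array weights. They numbered 819 and 716 at a threshold of 0.1, 172 and 55 at 0.01, and 1250 and 1326 without both arrays numbered 3. Leaving out 1 array gave 177 to 845 higher and 41 to 722 lower. Signs changed for 21 named genes, none of them called, with an adjusted p of at least 0.776 at the change. With quantile normalization repeated, the log2 differences were Irf9 0.01 and Ifnb1 0.00. With arrays centred on their medians, the log2 differences were Ifi35 −0.01 and Oas3 −0.01. With array weights, the log2 differences were Ifit3 0.00. With the mean of all probe sets, the log2 differences were Ifi35 −0.03 and Sp100 0.06. Without both arrays numbered 3, the log2 differences were Ifit3 −0.03, Oas3 0.00, Irf9 0.01, Adar 0.00 and Ifnb1 −0.02. Without both arrays numbered 1, the log2 differences were Ifit3 −0.04, Ifih1 0.07, Ddx58 0.03, Oasl2 0.00, Bst2 0.15 and Sp100 0.00. Without both arrays numbered 2, the log2 differences were Ifi35 −0.05, Dhx58 0.00, Oas3 −0.10, Usp18 −0.04, Zbp1 −0.02, Ifng 0.06 and Ifnb1 −0.02. Over the fits that leave out 1 array, they ranged for Adar from −0.07 to 0.03, Bst2 from −0.10 to 0.06, Ddx58 from −0.18 to 0.09, Herc6 from 0.00 to 0.38, Ifi35 from −0.03 to 0.07, Ifih1 from −0.06 to 0.04, Ifit3 from −0.09 to 0.14, Ifitm3 from −0.19 to 0.79, Ifnb1 from −0.01 to 0.11, Ifng from −0.54 to 0.12, Irf7 from −0.41 to 0.05, Irf9 from −0.06 to 0.05, Oas3 from −0.05 to 0.09, Oasl2 from −0.35 to 0.07, Parp9 from −0.04 to 0.26, Psmb9 from −0.01 to 0.15, Socs1 from −0.14 to 0.04, Sp100 from −0.16 to 0.07, Usp18 from −0.04 to 0.40 and Zbp1 from 0.00 to 0.20.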

Other observations

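Sp100 had 4 probe sets of its own, and they did not go the same way. The brightest differed by −0.04 ± 0.14 (SE, 3 arrays per group), the next by 0.04 ± 0.09, the third by −0.25 ± 0.35 and the dimmest by 0.51 ± 0.17 (limma adjusted p = 0.194 over all probe sets). Ifi35 had 2 probe sets, at 0.01 ± 0.09 and −0.07 ± 0.12.

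The difference of Ifit1 exceeded that of Ifit2 by 0.86 on the log2 scale. Within replicate pairs 1, 2 and 3 the excess was 0.61, 1.56 and 0.43. This pair was picked after the values were seen and the contrast was not tested.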
